A study of Mus musculus with 3 samples.

Results

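Transcripts of the enzymes and the transporter that divide L-arginine between nitric oxide and ornithine, and of the enzyme that makes itaconate, were followed in macrophages sorted from mouse lung. The 8 genes named for this purpose were Irg1 (now called Acod1), Nos2, Gch1, Slc7a2, Ass1, Arg1, Arg2 and Odc1. They were found by gene symbol among the 12880 genes listed in the deposited tables, and 7 of the 8 had a row. Ass1, the enzyme that starts the recycling of citrulline to arginine, had none and is not analysed here. The genes were chosen by pathway and by their read counts at 0, 4 and 24 h in these same libraries, so their levels and ratios are descriptions and carry no test.

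Macrophages can oxidize arginine to nitric oxide and citrulline with the inducible synthase Nos2, which needs the cofactor tetrahydrobiopterin, or split it to ornithine and urea with the arginases. Ornithine feeds the polyamines through ornithine decarboxylase (Odc1) and proline through ornithine aminotransferase. Itaconate is made in mitochondria from the citric acid cycle intermediate cis-aconitate, and it inhibits succinate dehydrogenase. In mouse macrophages, Nos2 and Irg1 are known as genes induced by lipopolysaccharide (LPS), and Arg1 as a gene induced by interleukin-4.

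The mice were LysM-GFP animals on C57BL/6, aged 6 to 8 weeks, whose myeloid cells carry a green fluorescent reporter at the lysozyme M locus. Acute lung injury was brought about with nebulized LPS, from a solution of 1 mg/ml. GFP-positive, Ly6g-negative, CD64-positive lung cells were sequenced in bulk, 1 library for each of 0, 4 and 24 h. Digestion lasted 50 min at 37 °C for each library. The deposited value columns are headed GFP_CD11b, though CD11b is not among the sorting markers named here. The treatment text is shared by all samples, so it is not known whether the 0 h animals had inhaled LPS, and the number of animals behind each library is not given in the sources used here. Whole reads numbered 24825976 in the 0 h library, 20379236 in the 4 h library and 25135476 in the 24 h library. Levels are normalized read counts, that is reads divided by a size factor on a scale common to the 3 libraries, and ratios carry a 95% interval that covers counting error only. With no replicate, "higher" and "lower" compare libraries, and no difference has been set against the spread between animals.

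The libraries also differed in transcripts that mark cell types. For scale, 15.2% of all genes were at least 2-fold higher and 14.3% lower at 4 h than at 0 h. At 24 h against 0 h the shares of all genes were 4.9% and 9.04%. Transcripts of the macrophage genes Csf1r, the receptor for macrophage colony-stimulating factor (29976, 40025 and 29673 normalized counts at 0, 4 and 24 h), and Cd68 (21286, 13168 and 17754) were abundant at each time. Of 8 general macrophage markers, 3 were at least 2-fold higher and 0 lower at 4 h than at 0 h, among them Fcgr1, which encodes the sorted CD64 (2479, 7237 and 2887), and Itgam (7235, 33421 and 7385). Lyz2, the gene of the reporter locus, was nearly absent, at 40.2, 20.3 and 17.3 from 43, 16 and 21 reads. Summed over 16 alveolar macrophage markers, the level was 838736 at 0 h, 313291 at 4 h and 490837 at 24 h, with 14 of 16 at least 2-fold lower at 4 h than at 0 h but 1 of 16 lower at 24 h than at 0 h. Most of each of these sums came from 1 gene, Chi3l3, at 601110, 209378 and 310123. Summed over 10 classical monocyte markers the level was 103652, 449636 and 84954, with 8 of 10 at least 2-fold higher and 1 lower at 4 h than at 0 h. At 24 h against 0 h, 7 of these 10 were higher and 2 lower, and the smaller sum goes with fibronectin (Fn1), at 25383 at 24 h against 87223 at 0 h, while Ccr2 stood at 13826 against 2603. Of 13 neutrophil markers 10 had a row and summed to 3517, 24605 and 7200, with 9 of the 9 compared higher at 4 h and 6 of 9 at 24 h than at 0 h, while Ly6g, Mpo and Elane had no row. Summed over 6 lung epithelium markers the level was 12750, 14775 and 14080, with 2 higher and 1 lower at 4 h than at 0 h, the club cell transcript Scgb1a1 (90.6, 3977 and 105) being one of the higher. Lymphocyte markers summed to 38.3, 123 and 295, and the 2 measured erythroid markers to 51.4, 1130 and 1769. Xist, the RNA that coats the silenced X, had 13705 reads at 0 h but 4 at 4 h and 1 at 24 h, and the Y-linked Ddx3y had 4, 3994 and 2357, so comparisons against 0 h also set libraries of different sex-linked expression side by side. The part of these differences in the results below was not tested, and in bulk RNA fewer cells of a type cannot be told apart from less RNA per cell.

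Proximal promoter sequences are shown for the 3 measured genes that the RefSeq table held (build GRCm38.p6), so that genes with 4 h over 0 h ratios of 13.6 (Acod1), 1.78 (Gch1) and 1.18 (Odc1) can be set side by side. Each runs 5′ to 3′ on the gene's strand from 250 bases before to 50 bases after the annotated start. Capitals mark matches to GGNNNTTCC and AAANNGAAA in Acod1, to TGACGNNA and CCAAT in Gch1, and to GGGCGG on either strand in Odc1.
Acod1 (the tables' Irg1), chr14:103046762-103047061, plus strand: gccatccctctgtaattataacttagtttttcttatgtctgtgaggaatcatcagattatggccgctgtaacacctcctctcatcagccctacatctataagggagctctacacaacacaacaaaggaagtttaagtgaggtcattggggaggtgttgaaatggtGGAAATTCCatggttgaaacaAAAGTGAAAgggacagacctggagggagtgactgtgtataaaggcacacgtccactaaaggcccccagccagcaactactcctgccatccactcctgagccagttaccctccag
Gch1, chr14:47189364-47189663, minus strand: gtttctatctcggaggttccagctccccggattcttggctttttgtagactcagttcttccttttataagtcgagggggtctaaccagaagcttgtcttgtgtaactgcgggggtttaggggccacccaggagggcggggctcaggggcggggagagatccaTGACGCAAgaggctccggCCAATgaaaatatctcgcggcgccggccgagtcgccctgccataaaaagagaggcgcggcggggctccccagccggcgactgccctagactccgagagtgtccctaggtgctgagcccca
Odc1, chr12:17544623-17544922, plus strand: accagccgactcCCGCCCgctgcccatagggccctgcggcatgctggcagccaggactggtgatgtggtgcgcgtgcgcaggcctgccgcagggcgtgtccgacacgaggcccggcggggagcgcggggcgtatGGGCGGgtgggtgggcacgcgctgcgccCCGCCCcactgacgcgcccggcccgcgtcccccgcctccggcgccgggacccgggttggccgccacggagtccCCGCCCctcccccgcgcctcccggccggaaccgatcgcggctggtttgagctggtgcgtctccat

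The Acod1 window was 47.0% G and C, against 60.3% for Gch1, 78.0% for Odc1 and a median of 52.7% over 32851 promoters. In Acod1, the letters GGAAATTCC, which fit the kappaB-like pattern GGNNNTTCC on both strands, lay at -85 to -77 relative to the start. AAAGTGAAA, which fits the interferon regulatory factor core AAANNGAAA, lay at -64 to -56. These patterns occurred in 18.5% and 10.6% of all promoters. A TATAAA lay at -28 to -23 in Acod1, a pattern held by 13.6% of promoters. In Gch1 the letters TGACGCAA, a match to the cyclic AMP element-like TGACGNNA held by 6.61% of promoters, lay at -88 to -81 and CCAAT (37.4% of promoters) at -70 to -66. Gch1 also had GGNNNTTCC once, TATAAA once on the other strand, and GGGCGG at 2 places. The Acod1 window held CCAAT on the other strand. Odc1 had 4 matches to the GC box GGGCGG, which 35.7% of promoters held, and none to the other patterns. The patterns TTCNNNGAA (STAT), TTGCNNAA (C/EBP) and CACGTG (E-box) matched none of these 3 windows, all patterns being searched on both strands. A match describes letters only, not a bound site.

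Irg1, the source of itaconate (chromosome 14, 103047012 to 103056573, plus strand, mm10), had the widest swing of the 7 genes. Its 0 h level was 974 normalized counts, its 4 h level 13212 and its 24 h level 247, from 1043, 10408 and 300 reads. The 4 h library was far above the others, and the 24 h library was the lowest. The ratio was 13.6-fold higher at 4 h than at 0 h (12.7 to 14.5). At 24 h the level was 3.95-fold lower than at 0 h (3.47 to 4.51). Against 4 h it was 53.6-fold lower at 24 h (47.8 to 60.3), which placed it at rank 18 from the lowest of 12684 genes compared. Irg1 was the only one of the 7 genes that was over 2-fold lower at 24 h than at 0 h, except that Slc7a2 joined it after recentring on ribosomal protein genes.

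Nos2, the inducible nitric oxide synthase (chromosome 11, 78920787 to 78960226, plus strand), was scarce at 0 h and 24 h. Its normalized counts were 36.4 in the 0 h library, 866 in the 4 h library and 36.2 in the 24 h library, which rest on 39, 682 and 44 reads. The 0 h and 24 h libraries could not be told apart at this depth, with a 24 h over 0 h ratio of 0.993 (0.630 to 1.57). At 4 h the level was 23.8-fold higher than at 0 h (17.2 to 33.7), at rank 59 from the highest of 12512 genes, and the 24 h level was 23.9-fold lower than at 4 h (17.6 to 33.3).

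Gch1, the rate-limiting enzyme of tetrahydrobiopterin synthesis (chromosome 14, 47153895 to 47189402, minus strand), moved the same way as Nos2 over a much narrower range. Its levels were 1857 at 0 h, 3308 at 4 h and 1402 at 24 h. The 4 h library was again the highest and the 24 h library the lowest. The 4 h level was 1.78-fold higher than at 0 h (1.68 to 1.89), short of the 2-fold mark used here. The 24 h level was 2.36-fold lower than at 4 h (2.22 to 2.51), and 1.88-fold lower when libraries were scaled to total reads. Against 0 h it was 1.32-fold lower (1.24 to 1.41).

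Slc7a2, the cationic amino acid transporter that brings arginine into activated macrophages (chromosome 8, 40862367 to 40922070, plus strand), had the most reads of the 7 genes. Its levels were 18377 at 0 h, 81243 at 4 h and 10220 at 24 h. The 4 h library stood 4.42-fold above 0 h (4.35 to 4.49), and 24 h was 7.95-fold below 4 h (7.80 to 8.10). The 24 h level was 1.80-fold lower than at 0 h (1.76 to 1.84), and 2.57-fold lower after recentring on ribosomal protein genes. An annotated long noncoding RNA on the opposite strand overlaps 6.95% of its exon bases.

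The 2 arginases parted from each other. Arg2, the mitochondrial arginase (chromosome 12, 79130788 to 79156301, plus strand), had levels of 126 in the 0 h library, 1417 in the 4 h library and 93.7 in the 24 h library, and so followed Irg1 and Nos2. It was 11.2-fold higher at 4 h than at 0 h (9.39 to 13.5) and 15.1-fold lower at 24 h than at 4 h (12.5 to 18.5). At 24 h it was 1.35-fold lower than at 0 h (1.04 to 1.74). The oppositely oriented gene Vti1b overlaps 20.0% of Arg2 exon bases, and whether reads were counted by strand is not given in the sources used here. Vti1b itself stood at 1429, 1243 and 1748 at 0, 4 and 24 h, and its part in the Arg2 counts was not tested.

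Arg1, the cytosolic arginase first known from liver (chromosome 10, 24915207 to 24927470, minus strand), was the only one of the 7 genes with its highest level at 24 h, an order of 24 h and 4 h that turned round on recentring on ribosomal protein genes (ratio 0.871). Its level was 41.1 in the 0 h library, 60.9 in the 4 h library and 75.6 in the 24 h library, from 44, 48 and 92 reads. Neighbouring times did not differ beyond counting error, with a 4 h over 0 h ratio of 1.48 (0.964 to 2.29) and a 24 h over 4 h ratio of 1.24 (0.866 to 1.80). The 24 h over 0 h ratio was 1.84 (1.27 to 2.70), and 1.29 after recentring on ribosomal protein genes. The GENCODE M21 transcripts of Arg1, Arg2, Irg1 and Nos2 shared none of their 50-base stretches with another gene.

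Odc1, ornithine decarboxylase, the first step of polyamine synthesis (chromosome 12, 17544873 to 17551502, plus strand), varied least by the ratio of its highest to its lowest level on the main scaling. Counting error does not set this ratio apart from that of Arg1 (1.84, interval 1.27 to 2.70). After recentring on ribosomal protein genes Odc1 spanned 2.30-fold and Arg1 1.48-fold. The deposited log2 fold change largest in size was -0.51 for Odc1 (24 h against 4 h) and 0.48 for Arg1 (24 h against 0 h). Levels of Odc1 were 1038 at 0 h, 1225 at 4 h and 758 at 24 h. The 4 h over 0 h ratio was 1.18 (1.08 to 1.29), and the 24 h level was 1.62-fold lower than at 4 h (1.48 to 1.77) and 1.37-fold lower than at 0 h (1.25 to 1.496). Odc1 shared 24.3% of its 50-base stretches with 15 other annotated genes, and how such reads were assigned is not known, so its counts are uncertain.

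**Figure D1:**
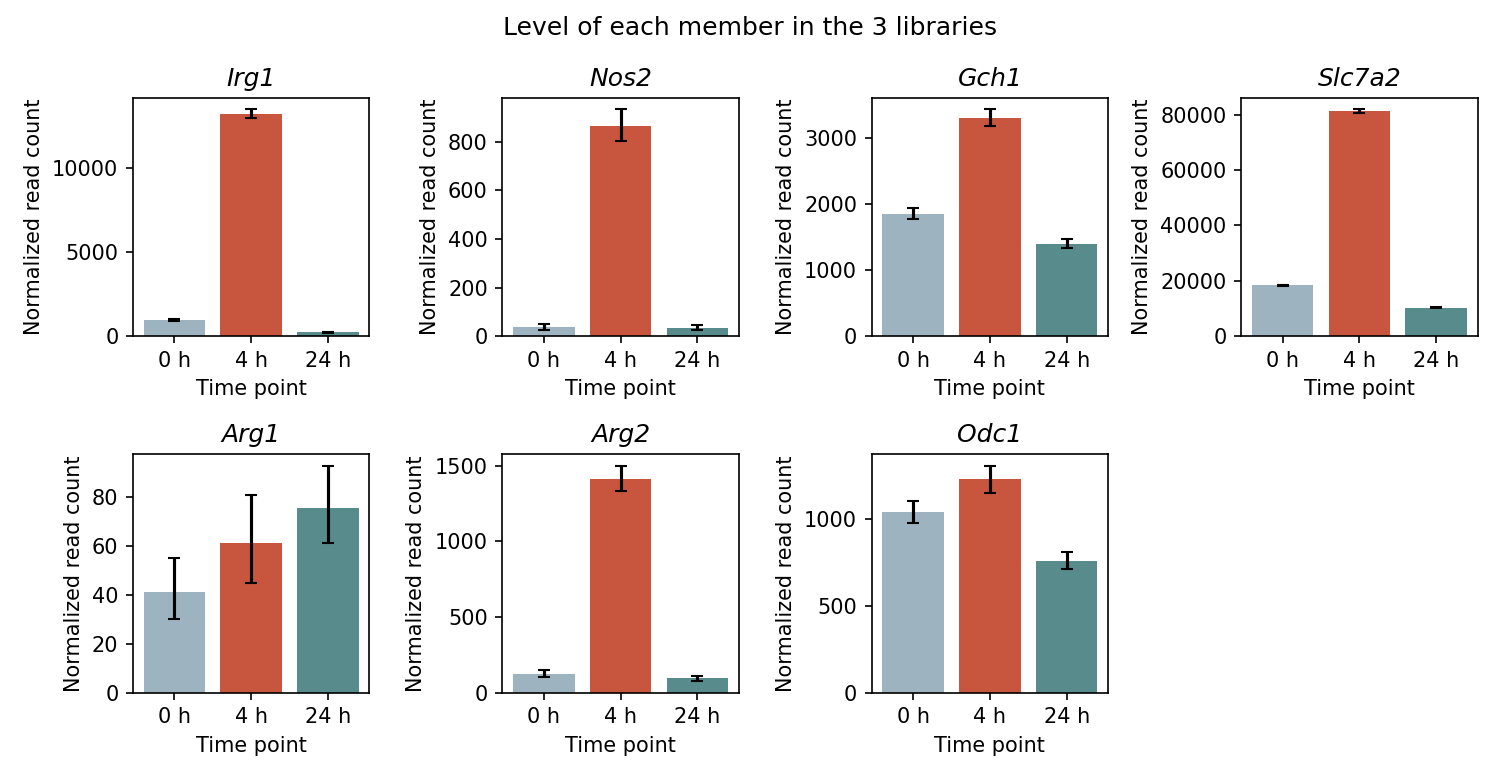
Normalized read count of each of the 7 measured genes (vertical axis, linear from 0, own scale per panel) in the 0 h, 4 h and 24 h libraries. Bars are single libraries and error bars are 95% counting intervals. The other panels peak at 4 h, whereas Arg1 is highest at 24 h with 75.6 counts, though not after recentring on ribosomal protein genes.

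Counted together, 4 of the 7 genes (Irg1, Nos2, Slc7a2 and Arg2) were at least 2-fold higher at 4 h than at 0 h and 0 were lower, where 15.2% of all genes were higher and 14.3% lower. In the comparison of 24 h against 0 h, 0 were higher and 1 (Irg1) lower, with 4.9% and 9.04% of all genes. Against 4 h, 0 were higher at 24 h and 5 (those 4 and Gch1) lower, with 14.4% and 17.9% of all genes. The medians of the 7 log2 ratios were 2.14, -0.43 and -2.99 in these comparisons, where the median over all genes was 0.00 in each. The comparisons share libraries and the genes were picked for this behaviour, so nothing is read from these shares. In the authors' deposited table the log2 fold changes, which are shrunken toward 0, were 2.48 for Irg1, 2.72 for Nos2, 2.31 for Arg2 and 1.59 for Slc7a2 at 4 h against 0 h. The authors' deposited table for 24 h against 4 h had -2.86, -2.54, -2.36 and -1.99 for the same genes in that order, and -0.92 for Gch1. A deposited value of at least 1 in size was reached by 4 higher and 0 lower genes of the 7 at 4 h against 0 h (8.86% and 9.02% of all genes), by 0 higher and 1 lower at 24 h against 0 h (0.539% and 2.14%) and by 0 higher and 4 lower at 24 h against 4 h (7.26% and 10.2%).

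**Figure D2:**
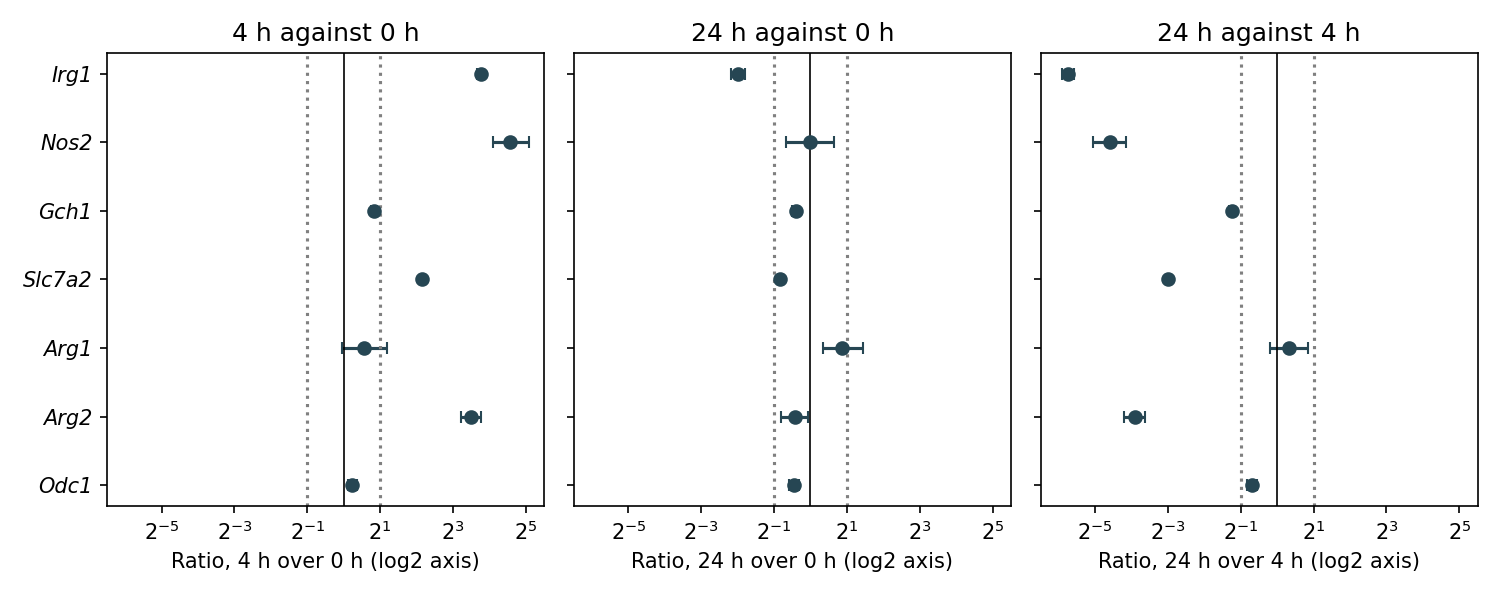
Ratio of normalized counts, later over earlier library (horizontal log2 axis), for the 7 genes in 3 comparisons. Points are ratios, bars 95% counting intervals and dotted lines 2-fold. In the middle panel only Irg1, 3.95-fold lower, lies outside the dotted lines.

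Levels of different genes were compared per kilobase of exon. Exon lengths cover all GENCODE M21 transcripts of a gene, used or not, and may differ from the annotation the authors counted on. The order of genes depends on these lengths. At 0 h Slc7a2 led with 2012 normalized counts per kilobase, followed by Irg1 with 371. Odc1 (305, interval 287 to 323) and Gch1 (297, interval 284 to 310) came next and did not differ beyond counting error. Arg2 followed with 88.3, Arg1 with 18.4 and Nos2 with 8.25. At 4 h the order per kilobase was Slc7a2 (8894), Irg1 (5037), Arg2 (992), Gch1 (529), Odc1 (360), Nos2 (196) and Arg1 (27.3). The arginase Arg2 had thus passed Gch1 and Odc1, and Nos2 had passed Arg1. At 24 h it was Slc7a2 (1119), Gch1 (224), Odc1 (223), Irg1 (94.0), Arg2 (65.6), Arg1 (33.9) and Nos2 (8.19). Irg1 had dropped below Gch1 and Odc1, which again lay within counting error of each other.

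Ratios between genes within a library do not depend on how libraries are scaled. Per exon length, Arg2 exceeded Arg1 by 4.79-fold at 0 h (3.38 to 6.89), 36.3-fold at 4 h (27.2 to 49.5) and 1.93-fold at 24 h (1.46 to 2.57). By these counts Arg2 was the more abundant arginase transcript at each time, and the lead was widest at 4 h. Whether reads of the overlapping Vti1b add to the Arg2 counts in these ratios was not tested. Nos2 over Arg2 per exon length was 0.0935 at 0 h (0.0637 to 0.134), 0.198 at 4 h (0.180 to 0.218) and 0.125 at 24 h (0.0861 to 0.178), so Arg2 transcripts outnumbered those of Nos2 in all 3 libraries. Nos2 over Arg1 per exon length was 0.448 at 0 h (0.283 to 0.705), 7.18 at 4 h (5.35 to 9.83) and 0.242 at 24 h (0.165 to 0.350), which makes 4 h the one time when the synthase outnumbered Arg1. Irg1 over Nos2 per exon length was 45.0 at 0 h (32.7 to 63.6), 25.7 at 4 h (23.8 to 27.8) and 11.5 at 24 h (8.34 to 16.1). Slc7a2 over Slc7a1, the housekeeping cationic amino acid transporter, was 17.7 per exon length at 0 h (16.7 to 18.7), 52.5 at 4 h (49.9 to 55.2) and 23.7 at 24 h (21.9 to 25.7).

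**Figure D3:**
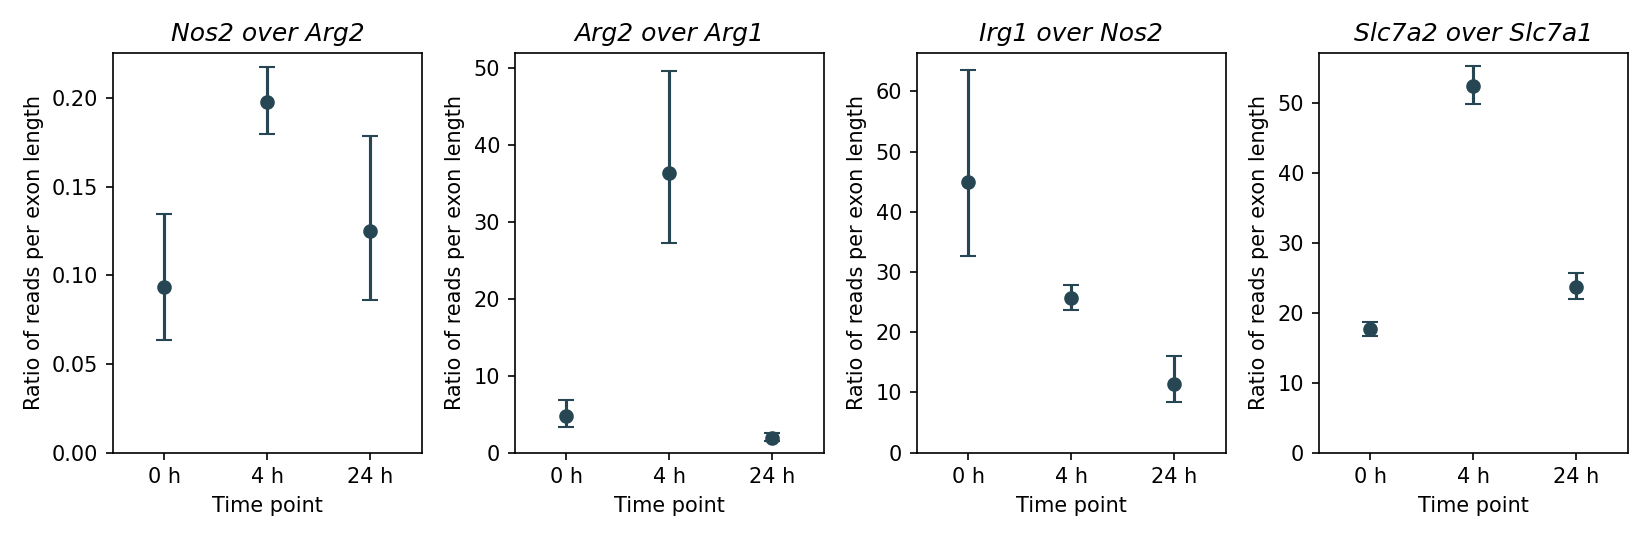
Ratio of reads per exon length between 2 genes of the same library (vertical axes, linear from 0) at 0, 4 and 24 h. Points are single libraries and bars 95% counting intervals. Arg2 over Arg1 stands at 4.79 at 0 h, 36.3 at 4 h and 1.93 at 24 h.

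Genes of the surrounding pathways were counted in the same way. Of 91 other genes named in 6 lists, 79 had a row. At 4 h against 0 h, 6 of 77 compared were at least 2-fold higher and 14 lower (7.79% and 18.2%, against 15.2% and 14.3% of all genes), with a median log2 ratio of -0.32. Between 24 h and 0 h, 3 were higher and 6 lower at 24 h (3.90% and 7.79%, against 4.9% and 9.04% of all genes; median -0.03). Between 24 h and 4 h, 17 of 79 were higher and 12 lower (21.5% and 15.2%, against 14.4% and 17.9% of all genes; median 0.25), which became 30 and 9 when libraries were scaled to total reads and 8 and 19 after recentring on ribosomal protein genes. Most of these shares lay near those of all genes, and nothing particular to the pathways is read from them.

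**Figure D4:**
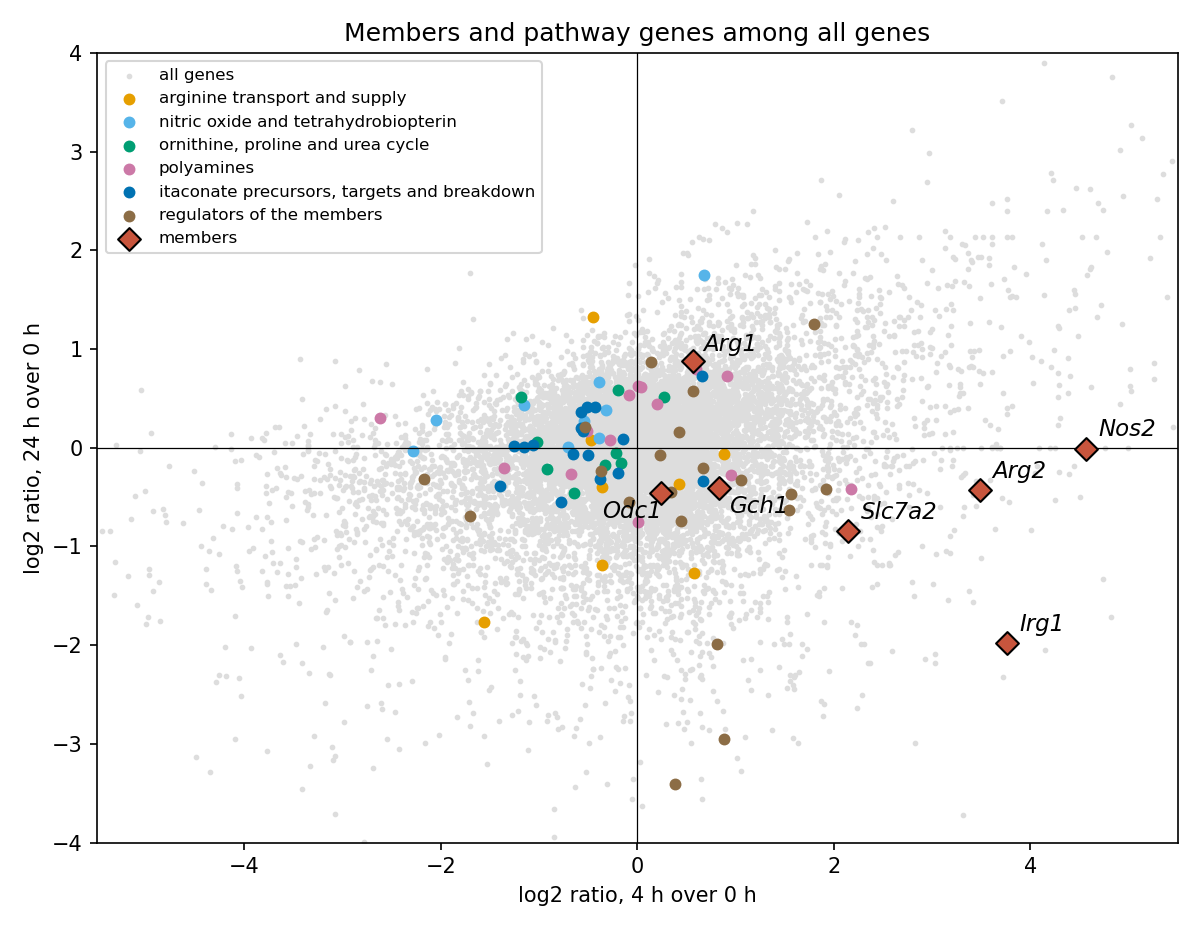
Log2 ratio at 4 h over 0 h (horizontal) against log2 ratio at 24 h over 0 h (vertical) for 12481 genes in grey, the pathway lists in colour and the 7 measured genes as labelled diamonds, with 57 genes beyond the axes. The axes share the 0 h library. Irg1 lies at 3.76 and -1.98, and most pathway genes lie left of the diamonds.

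Among 9 nitric oxide and tetrahydrobiopterin genes measured, 0 were at least 2-fold higher and 3 lower at 4 h than at 0 h. These are 0% and 33.3%, against 15.2% and 14.3% of all genes (median log2 ratio -0.54). Qdpr, which regenerates tetrahydrobiopterin from its oxidized form, was 4.14-fold lower (3.77 to 4.55), at 669 normalized counts at 4 h against 2767 at 0 h. The members that lie between Gch1 and the cofactor, Pts (903 at 4 h against 1313 at 0 h) and Spr (311 against 409), stayed inside 2-fold in that comparison. Set against 4 h, 6 of 10 were higher at 24 h and 0 lower (median 1.06). The shares were 60% and 0%, against 14.4% and 17.9% of all genes. After recentring on ribosomal protein genes 4 of 10 were higher, and 9 of 10 with total reads. The higher ones included Gucy1a3 (16.5 at 4 h, 34.5 at 24 h) and Gucy1b3 (6.35 and 19.7), both with few reads. Qdpr was 5.02-fold higher (4.59 to 5.51) at 24 h than at 4 h. The transcripts of Gch1 and of the recycling enzyme Qdpr therefore lay in opposite directions at 4 h against 0 h. The neuronal and endothelial synthase genes Nos1 and Nos3 had no row.

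Of the 8 genes of arginine transport and supply, 0 were higher and 1 lower at 4 h than at 0 h. That is 0% and 12.5%, against 15.2% and 14.3% of all genes (median -0.36). The most abundant of the 8, Slc3a2, the heavy chain of several amino acid transporters, stood at 9785 at 4 h against 7274 at 0 h. At 24 h against 0 h, 1 was higher and 3 lower (12.5% and 37.5%, against 4.9% and 9.04% of all genes). The lower ones were Slc7a1, Slc7a3 (13.1 at 0 h, 5.75 at 24 h) and Ddah1 (44.8 and 13.1), and the higher was Ddah2 (24.3 and 60.8). At 24 h against 4 h, 1 was higher and 1 lower (12.5% each, against 14.4% and 17.9% of all genes), or 1 and 4 after recentring on ribosomal protein genes. Slc7a1 had 1313, 1954 and 544 normalized counts at 0, 4 and 24 h, so at 24 h it was 2.41-fold lower than at 0 h (2.20 to 2.65) and 3.59-fold lower than at 4 h (3.28 to 3.94). Asl, which completes the recycling of citrulline to arginine, stood at 995, 715 and 1047.

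Ornithine and proline use, creatine synthesis and the urea cycle had 9 measured genes. At 4 h, 0 were higher and 2 lower than at 0 h (median -0.33). The shares were 0% and 22.2%, against 15.2% and 14.3% of all genes. Pycrl, a reductase of the last step of proline synthesis, was 2.27-fold lower (1.86 to 2.79), and Gamt, the second enzyme of creatine synthesis, 2.02-fold lower (1.57 to 2.63). Oat, ornithine aminotransferase, was the most abundant and stood at 2846, 2270 and 2521 at 0, 4 and 24 h. None of the 9 passed 2-fold at 24 h against 0 h, where 4.9% of all genes were higher and 9.04% lower. Set against 4 h, 2 of 10 were higher at 24 h and 0 lower (20% and 0%, against 14.4% and 17.9% of all genes). After recentring on ribosomal protein genes 1 was higher, and 4 with total reads. The 24 h level of Pycrl was 3.24-fold higher than at 4 h (2.69 to 3.94) and that of Gamt 2.10-fold higher (1.64 to 2.72), the Gamt ratio being 1.48 after recentring on ribosomal protein genes.

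Of 14 polyamine genes, 1 was higher and 2 were lower at 4 h than at 0 h (median 0.01). These are 7.14% and 14.3%, against 15.2% and 14.3% of all genes. The higher one was Smox, spermine oxidase, which breaks spermine down to spermidine and releases hydrogen peroxide. Smox stood at 1024, 4617 and 766 at 0, 4 and 24 h, and was thus 4.51-fold higher at 4 h than at 0 h (4.21 to 4.83) and 6.03-fold lower at 24 h than at 4 h (5.61 to 6.48). Azin1, the antizyme inhibitor that protects ornithine decarboxylase from degradation, stood at 4073, 7864 and 3363, and was 2.34-fold lower at 24 h than at 4 h (2.25 to 2.43), or 1.87-fold with total reads and 1.98-fold with upper quartiles. Atp13a2, a lysosomal polyamine exporter, was 2.57-fold lower at 4 h than at 0 h (2.46 to 2.68) and 2.23-fold higher at 24 h than at 4 h (2.14 to 2.33), or 1.57-fold after recentring on ribosomal protein genes. Sat1, the acetyltransferase that starts polyamine breakdown and the most abundant of the list, stood at 11498, 11585 and 17780. The synthases Srm (627, 440.5 and 704) and Sms (122, 231 and 203) stayed inside 2-fold in each comparison on the main scaling, and Srm reached 2.002-fold higher at 24 h than at 4 h with total reads. At 24 h against 4 h, 2 of the 14 were higher and 2 lower (14.3% each, against 14.4% and 17.9% of all genes). These became 3 and 1 with total reads and 1 and 3 after recentring on ribosomal protein genes.

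Of 17 genes around itaconate, 0 were higher and 4 lower at 4 h than at 0 h (median -0.55, against 0.00 over all genes). That is 0% higher and 23.5% lower, against 15.2% and 14.3% of all genes. Slc25a10, the mitochondrial dicarboxylate carrier, was 2.64-fold lower (2.22 to 3.17) and Clybl, a mitochondrial lyase that acts in the breakdown of itaconate by way of citramalyl-CoA, 2.39-fold lower (1.80 to 3.22). Sdha, the catalytic subunit of the succinate dehydrogenase that itaconate inhibits, stood at 6626, 4672 and 6285 at 0, 4 and 24 h and stayed inside 2-fold in each comparison. At 24 h against 4 h, 4 of 17 were higher and 1 lower (median 0.72), among them Clybl at 2.42-fold (1.83 to 3.24) and Idh2, a mitochondrial isocitrate dehydrogenase, at 2.23-fold (2.05 to 2.43). On the main scaling 14.4% of all genes were higher and 17.9% lower, against 23.5% and 5.88% of the 17. After recentring on ribosomal protein genes 0 of 17 were higher, and 9 of 17 when scaled to total reads. The lower one was Nfe2l2, encoding NRF2, the antioxidant factor that itaconate activates, at 9400 at 24 h against 18912 at 4 h, which is 2.01-fold lower but 1.61-fold with total reads and 1.70-fold with upper quartiles.

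Of 20 known regulators or upstream sensors of these genes, 5 were higher and 2 lower at 4 h than at 0 h. These are 25% and 10%, against 15.2% and 14.3% of all genes (median 0.43). Hif1a, the hypoxia factor that drives Nos2, was 3.79-fold higher (3.63 to 3.95), and Cebpd, an acute phase factor, 3.47-fold higher (3.17 to 3.80). Myc, an activator of Odc1, was 3.26-fold lower (2.82 to 3.79), and Pparg, which is also in the alveolar macrophage list, 4.50-fold lower (4.21 to 4.81). Irf1, needed for Nos2 induction, stood at 7800, 23126 and 5629 at 0, 4 and 24 h. Stat6, which carries the interleukin-4 signal to Arg1, stood at 8530, 8020 and 5819 and was inside 2-fold in each comparison on the main scaling. At 24 h against 4 h, 2 of 20 were higher and 8 lower (median -0.67). The shares were 10% and 40%, against 14.4% and 17.9% of all genes. The counts became 4 and 7 with total reads and 1 and 11 after recentring on ribosomal protein genes. Rel, an NF-kappaB subunit, was 14.3-fold lower (13.1 to 15.7), and Il10, an anti-inflammatory cytokine, 13.9-fold lower (9.02 to 22.4), at 18.9 normalized counts at 24 h against 263 at 4 h. Against 0 h, Rel was 7.73-fold lower (7.06 to 8.49) and Il10 10.6-fold lower (6.90 to 17.1) at 24 h, and Cebpd was 2.39-fold higher (2.18 to 2.61), or 1.67-fold after recentring on ribosomal protein genes.

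Genes with the most similar course were sought among 9904 genes averaging 100 normalized counts or more, by the distance between pairs of log2 ratios (4 h over 0 h and 24 h over 0 h) across the 3 libraries. Nearest to Arg2 were the monocyte chemokine Ccl2 (366, 3915 and 263 at 0, 4 and 24 h, distance 0.087), the neutrophil chemokine Cxcl3 (2703, 29581 and 2143, distance 0.10) and the decoy receptor Il1r2 (162, 1945 and 129, distance 0.14). Nearest to Irg1 were the pseudogene Slfn10-ps (distance 0.34), Inhba, the activin A subunit (176, 3132 and 42.7, distance 0.39), and Slc7a11, the cystine importer (1378, 14308 and 505, distance 0.66). For Nos2 they were G530011O06Rik (distance 0.22), Creb3l1 (0.32) and Crispld2 (0.36), and for Slc7a2 Tet2, a DNA demethylase that stood at 2101, 8727 and 1155 (distance 0.092), Gm4951 (0.12) and Lama5 (0.12). Gch1 lay nearest Sowahc (distance 0.028), Rsbn1 (0.032) and Ccdc76 (0.040). Arg1 lay nearest B4galt4 (distance 0.017), Bet1 (0.027) and Jrkl (0.032), and Odc1 nearest Madd (0.012), Fip1l1 (0.017) and the actin-bundling Lcp1 (0.017). Genes with small ratios have many neighbours by construction, and 3 libraries allow no more than a description of likeness. The distances leave out counting error. It is wide for Arg1 (44, 48 and 92 reads) and for Nos2 at 0 h and 24 h (39 and 44), so their neighbours are not resolved.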

How the data were processed

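RNA sequencing of sorted lung macrophages was analysed from 3 deposited tables, each comparing 2 of the 3 time points, grouped by the time in the labels. Per the submitters' processing notes, DESeq2 and build mm10 were used, while no aligner, counter or annotation is named in those notes. The deposited signal values are read counts over a size factor particular to each table, and 100% were whole multiples of 1 read within 0.001 reads. Listed genes have a mean above 10 over the pair. The deposited log2 fold changes are of the later over the earlier library and shrunken toward 0. The table named for 24 h against 0 h heads its first value column as 4 h. That column and 6 columns of averages, 7 in all, were not used, and levels of the 0 h library were read from its table with 4 h. Fold changes deposited in the table with that heading had the sign of the 24 h over 0 h ratio in 1676 of 1676 genes at least 2-fold different.

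Whole reads were scaled with median-of-ratios size factors fitted across the 3 libraries (1.07 at 0 h, 0.788 at 4 h, 1.22 at 24 h). Ratios have exact Clopper-Pearson 95% intervals (scipy 1.17.1). A gene is counted as higher or lower at 2-fold. A library at 0 reads was set to 3 reads. No count model was fitted, since 1 library per time leaves no residual spread, and no p-value is given. The ratio steps were run on simulated counts with counting error only and no spread between animals, which checks the arithmetic alone. Table starts were shifted by 1 base to count from 1.

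The 8 genes, the lists and the rule for naming genes were chosen with earlier results of these data known. The rule names all 8 genes, up to 2 genes furthest up and 2 furthest down per list and comparison with at least 100 normalized counts, or else the most abundant, and the 3 nearest patterns. Values of some listed genes are not reported here, though the counts and medians of their lists include them. Motifs, and other pathway genes named, were chosen after sequences or values were seen. Of 91 pathway genes, 78 matched by symbol and 1 by a synonym at the same location. Alternatives were 3 other scalings, the deposited fold changes, a pseudocount of 10, a minimum mean of 100, and thresholds of 1.5-fold and 4-fold.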

Additional observations from a re-analysis of the deposited data

How the results depend on the processing

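No paired analysis was possible because each time point has 1 library, and no library could be left out for the same reason. Of 21 log2 ratios of the 7 genes, none that was past 2-fold changed sign under any of 3 other scalings, the deposited fold changes, a pseudocount of 10 or a minimum mean of 100, which left out Arg1. Among smaller ratios, Nos2 at 24 h against 0 h turned above 0 with total reads, upper quartiles and the deposited values, and Arg1 at 24 h against 4 h turned below 0 on recentring. Against the main scaling, ratios shifted on the log2 scale by -0.16, 0.17 and 0.32 (4 h against 0 h, 24 h against 0 h, 24 h against 4 h) with total reads, by -0.14, 0.10 and 0.24 with upper quartiles, and by -0.00, -0.51 and -0.51 on recentring on ribosomal protein genes. Counts of the 7 genes moved by over 1.5 times only at 24 h against 0 h, under the settings tried, where 0 were higher and 1 lower. They became 1 higher with total reads (Arg1, 2.07-fold) or at 1.5-fold, 2 lower on recentring or at 1.5-fold, and 0 lower at 4-fold. Counts of pathway genes under the deposited fold changes were 6 lower at 4 h against 0 h, 0 higher and 3 lower at 24 h against 0 h, and 7 higher at 24 h against 4 h. Recentring gave 1 higher and 12 lower at 24 h against 0 h, and 8 higher and 19 lower at 24 h against 4 h, where total reads gave 30 higher. A minimum mean of 100 gave 1 higher at 24 h against 0 h. At 4-fold the counts were 1 higher and 4 lower, 0 higher and 2 lower, and 3 higher and 7 lower in the 3 comparisons. Depth limits Nos2 at 0 h and 24 h and Arg1 throughout, each with fewer than 100 reads there.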
